A study of Mus musculus with 6 samples.

Results

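The subunits of the SWI/SNF chromatin remodeling complexes, also called BAF complexes, were examined in mouse embryo fibroblasts (MEFs) with and without RNF40, a ubiquitin ligase that places ubiquitin on histone H2B. The members were the 10 subunit genes Smarca2, Smarca4, Smarcb1, Smarcc1, Smarcc2, Smarcd1, Smarcd2, Smarcd3, Smarce1 and Arid1a, picked by gene symbol from the 29955 genes of the deposited table. All 10 were present and all 10 had enough reads to be tested. RNA was sequenced from 3 Rnf40+/+ and 3 Rnf40-/- libraries of primary MEFs at passage 3. In the study's model, exons of Rnf40 flanked by loxP sites are removed by a tamoxifen-inducible Cre recombinase expressed from the ubiquitous Rosa26 locus, and the Rnf40-/- cells had received 250 nM 4-hydroxytamoxifen (4-OHT) for 5 days, followed by 3 days in medium free of it. The study's methods describe MEFs from embryos homozygous for the floxed allele that carried the Cre transgene. Whether the Rnf40+/+ cells received 4-OHT is not given in the sources used here, so deletion and treatment cannot be told apart. The labels do not say whether the 3 libraries of a genotype came from separate embryos, and p-values then measure the spread between these libraries, which may be technical.

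SWI/SNF complexes use the energy of ATP to slide or evict nucleosomes and thereby open promoters and enhancers. Each complex holds 1 ATPase, either SMARCA4 (BRG1) or SMARCA2 (BRM). In the canonical form it also holds a core of SMARCB1, SMARCC and SMARCE1 proteins and 1 kind of SMARCD protein. Further subunits such as ARID1A set which form of the complex is built. Several positions can be filled by alternative paralogs, and the choice of paralog changes as cells differentiate. SMARCD3, for instance, is known for its part in the formation of heart and skeletal muscle, and SMARCD1 and SMARCD2 are its paralogs.

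The values are normalized counts, meaning the reads of a gene after scaling by the size factor of the library. With Rnf40 and without it stand for the Rnf40+/+ and Rnf40-/- libraries, replicates 1 to 3 in order, and SE is the standard error of a log2 fold change, tested in limma with p-values adjusted by Benjamini-Hochberg. The libraries held between 17053436 and 26344170 reads on genes, and single members had between 152 and 4474 reads in a single library. Rnf40 itself, the targeted gene, had normalized counts of 1278, 1195 and 1096 with Rnf40 and of 439, 519 and 487 without it and was thus lower in every Rnf40-/- library. All 12 fibroblast markers were detected and 10 were lower in Rnf40-/- libraries, with summed levels of 690770 to 758589 normalized counts in Rnf40+/+ and 414721 to 418016 in Rnf40-/- libraries. All 8 smooth muscle markers were lower in Rnf40-/- libraries (adjusted p under 0.05 in limma), where their sum was 25277 to 30537 against 159671 to 175060. The 10 skeletal muscle markers summed to 244 to 1551 in Rnf40+/+ and 191 to 202 in Rnf40-/- libraries, the highest value being that of Rnf40+/+ replicate 1 and mostly Actc1, and the defining factor Myod1 had no read. The 11 macrophage markers, of which 2 were called higher and 5 lower, summed to 6527 to 12170 in Rnf40+/+, with the highest value in replicate 3 and mostly through Lyz2, and to 4049 to 4559 in Rnf40-/- libraries. Endothelial markers summed to 149 to 285 in Rnf40+/+ and 249.8 to 346 in Rnf40-/-, and of the 6 tested 3 were higher and 1 was lower, with a median log2 fold change of 1.49. Epithelial markers summed to no more than 109.9. Neural markers summed to 3292 to 4747 in Rnf40+/+ and 2287 to 2644 in Rnf40-/- libraries, mostly through Nes and Tubb3. The neural markers Sox2, Rbfox3 and Gfap had means under 10. The part of these markers in the results for the subunits was not tested, and the calls were also made with each library left out. In bulk RNA, fewer cells of a type and less RNA per cell cannot be told apart.

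Of the 3 SMARCD paralogs, Smarcd3 had the largest absolute log2 fold change of all members (-1.30), whereas Smarcd2 did not pass the test (0.04). Smarcd1 was lower (-0.39), by slightly less than Smarcb1 (-0.41). The 250 bases before the RefSeq start sites of the SMARCD paralogs are shown because base composition differs between these paralogs. The sequences are from RefSeq on GRCm38.p6, read 5′ to 3′ on the strand of the gene, and capitals mark the GC box (GGGCGG on either strand). Smarcd3 lies at chr5:24602003-24602252 on the minus strand, Smarcd2 at chr11:106267633-106267882 on the minus strand and Smarcd1 at chr15:99702037-99702286 on the plus strand.
Smarcd3: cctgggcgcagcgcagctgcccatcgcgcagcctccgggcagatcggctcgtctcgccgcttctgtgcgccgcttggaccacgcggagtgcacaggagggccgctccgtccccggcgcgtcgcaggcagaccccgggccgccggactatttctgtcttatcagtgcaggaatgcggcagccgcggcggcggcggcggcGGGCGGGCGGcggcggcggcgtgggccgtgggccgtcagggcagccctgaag
Smarcd2: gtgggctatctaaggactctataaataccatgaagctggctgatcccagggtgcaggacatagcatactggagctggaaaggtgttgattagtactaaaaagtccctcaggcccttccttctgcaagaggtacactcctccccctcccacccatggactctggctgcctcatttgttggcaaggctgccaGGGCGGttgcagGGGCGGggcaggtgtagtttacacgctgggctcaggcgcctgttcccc
Smarcd1: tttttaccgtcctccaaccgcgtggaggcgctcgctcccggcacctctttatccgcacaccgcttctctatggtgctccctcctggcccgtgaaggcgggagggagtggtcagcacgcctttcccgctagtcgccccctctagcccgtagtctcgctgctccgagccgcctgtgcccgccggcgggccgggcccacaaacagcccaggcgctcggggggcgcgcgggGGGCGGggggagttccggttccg
The Smarcd3 window held 38 CpG dinucleotides and the Smarcd1 window 29, whereas the Smarcd2 window held 4. Smarcd2 has 9 transcripts in the GENCODE annotation of mm9, and only 1 window was found for it. Whether that window lies before its most upstream start was not checked. The 4 CpG dinucleotides therefore describe this window and not every promoter of Smarcd2. Over all 32851 RefSeq windows of this length the median was 6.

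Windows were found for 9 of the 10 members, with 2 for Arid1a. The median over these 10 windows was 26.5 CpG dinucleotides, and the range without Smarcd2 was 18 to 40. A GC box was present in 9 of the 10 windows, belonging to 8 members, against 32.7% of all windows. None of the 10 held a CCAAT box (CCAAT on either strand), found in 33.8% of all windows, or the letters TTTGAA of the CHR element of cell cycle promoters, found in 16% of all windows. Letters of an E2F site (TTTGGCGC, TTTCCCGC, TTTGGCGG or TTTCCCGG on either strand) were present in the Smarcd1 window and in 1 Arid1a window, against 2.68% of all windows. These shares are over all windows, whose median was 6 CpG dinucleotides, and no background of like base composition was computed. The contrasts are therefore not shown to be particular to the members. A match to letters is a description of the sequence and not of binding.

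Of the 10 members, 1 was higher and 3 were lower in Rnf40-/- MEFs at the 0.05 threshold for limma's adjusted p, while 6 did not pass. Among all 16378 genes tested, 47.4% passed, 23.3% as higher and 24.1% as lower, so the share of members called (40%) was near the background. The changes were also small. The median absolute log2 fold change of the members was 0.13 against 0.33 over all genes tested, and the signed medians were 0.01 and -0.0035, both of which turned in sign in some fits with a library left out. The stricter criteria of the study were a mean above 15, an unadjusted p under 0.05 and an absolute log2 change above 1. They were applied here to limma's p-values and fold changes, whereas the study used DESeq. By them 0 members were higher and 1 was lower, against 4.25% and 5.7% of all genes tested. Smarcd3 was the member with an absolute change of more than 1 on the log2 scale, a size that 11.8% of all genes tested exceeded. In 6 of the 10 members the libraries of the genotypes did not overlap, which was also true of 56.5% of all genes tested.

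**Figure D1:**
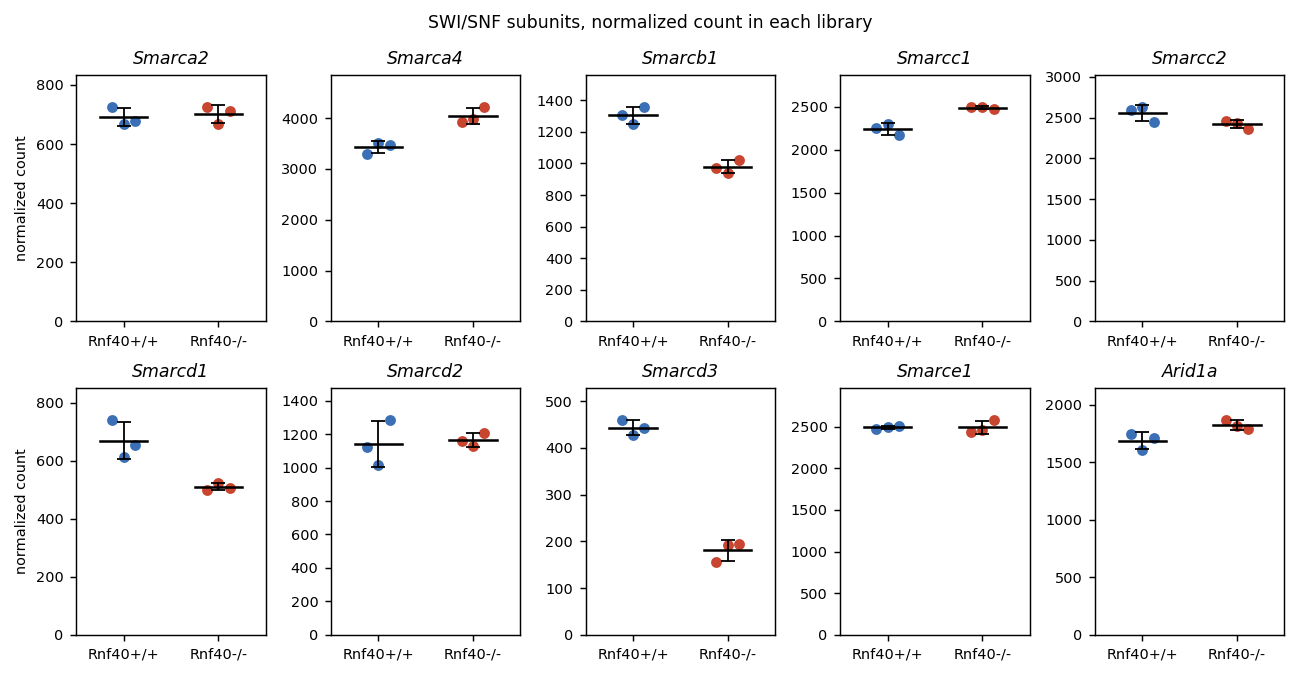
Normalized count (y axis, from 0) of each of the 10 members in the 3 Rnf40+/+ libraries (blue) and the 3 Rnf40-/- libraries (red), with the mean (line) and SD (bar). Smarcd3 shows the widest gap, relative to its level, between the genotypes, with 427 as the lowest Rnf40+/+ value and 195 as the highest Rnf40-/- value.

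Smarcd3 (ENSMUSG00000028949, chromosome 5 of mm9, 24096636 to 24107830, minus strand) encodes the SMARCD paralog used in muscle. Its normalized counts were 459.8, 427 and 443 with Rnf40 and 155, 193 and 195 without it. Every Rnf40-/- value was far below every Rnf40+/+ value, and the lowest was that of Rnf40-/- replicate 1. The means were 443 ± 16.3 and 181 ± 22.4 (SD, n = 3 each), the second being 40.8% of the first. The log2 fold change was -1.30 (limma, SE 0.12, adjusted p = 3.58e-06), and 7.13% of all genes tested had a larger absolute change. Smarcd3 is on the study's own list of genes lower after the deletion, which was drawn up on the same libraries, so this fall is not independent evidence.

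The 3′ end of Smarcd3 overlaps Chpf2 (chromosome 5, 24092559 to 24100213, plus strand), which encodes an enzyme of chondroitin sulfate synthesis. Over all annotated exons the overlap is 2466 nucleotides, or 54.3% of the exons of Smarcd3, and between coding transcripts it is 642 of the 1735 exonic nucleotides of Smarcd3. The library kit keeps the strand, but whether the counting used it is not given in the sources used here, and without strand reads of the shared stretch cannot be assigned to either gene. Chpf2 had normalized counts of 4705, 5172 and 5014 with Rnf40 and of 2726, 2833 and 2919 without it, and its log2 fold change was -0.81 (limma, SE 0.06, adjusted p = 1.17e-06). Expressed as a percentage of Chpf2, Smarcd3 was at 9.77%, 8.26% and 8.84% with Rnf40 and at 5.69%, 6.81% and 6.66% without it. The genotypes did not overlap, and the log2 ratio differed by -0.48 (two-sided exact permutation test, p = 0.1, the smallest possible). The part of Chpf2 reads in the values of Smarcd3 was not tested.

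Smarcd1 (ENSMUSG00000023018, chromosome 15 of mm9, 99532718 to 99544426) encodes the paralog that links the complex to nuclear receptors and other transcription factors. It had normalized counts of 740.4, 614 and 655 with Rnf40 and of 501, 524 and 505 without it. The Rnf40-/- values lay close together and below each Rnf40+/+ value, of which replicate 1 was the highest. The means were 669.7 ± 64.6 and 509.9 ± 12.3 (SD, n = 3 each), with a log2 fold change of -0.39 (limma, SE 0.09, adjusted p = 0.00362). The change was -0.31 without Rnf40+/+ replicate 1 and still passed (limma adjusted p = 0.014). A predicted gene on the opposite strand overlaps 5.80% of its exons.

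Smarcd2 (ENSMUSG00000078619, chromosome 11 of mm9, 106124493 to 106134286) encodes the paralog known from blood cell development. Its normalized counts were 1123, 1016 and 1285 with Rnf40 and 1161, 1127 and 1207 without it. The genotypes overlapped, and the Rnf40-/- values fell within the Rnf40+/+ range. The log2 fold change was 0.04 (95% interval -0.15 to 0.23, limma adjusted p = 0.761), an interval that includes small changes in either direction.

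The ratios among the SMARCD transcripts did not overlap between the genotypes either. Within each library, the log2 ratio of Smarcd3 to Smarcd2 was -1.29, -1.25 and -1.53 with Rnf40 and -2.90, -2.54 and -2.63 without it. The mean difference was -1.33, which is a ratio at 0.397 of its Rnf40+/+ level. The ratio of Smarcd3 to Smarcd1 differed by -0.91 and that of Smarcd2 to Smarcd1 by 0.42, in neither case with overlap between the genotypes. The 3 SMARCD ratios share genes, and how often ratios of other gene pairs lack overlap was not computed. An exact permutation test gave p = 0.1 (two-sided, n = 3 against 3) for each of the 6 paralog pairs compared here, which is the smallest value this design allows, and p = 0.1 after Benjamini-Hochberg adjustment over the 6 pairs. Per kilobase of exon, Smarcd3 made up 15.6% ± 0.87 of the 3 SMARCD paralogs in Rnf40+/+ and 7.56% ± 0.831 in Rnf40-/- MEFs (SD, n = 3 each). Smarcd2 made up 50.6% ± 3.03 and 61.7% ± 1.41, and Smarcd1 33.9% ± 2.45 and 30.7% ± 1.04. These shares depend on the length, and with the longest coding transcript Smarcd3 made up 29.0% and 15.1%. The summed SMARCD level per kilobase was 649, 572 and 663 with Rnf40 and 516, 523 and 539 without it, without overlap.

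**Figure D2:**
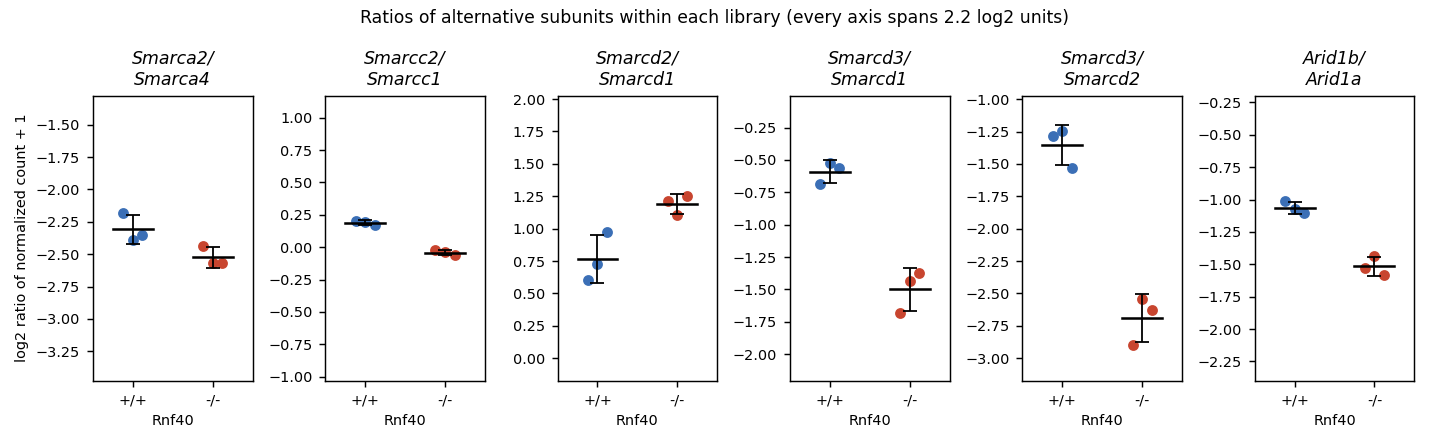
Log2 ratio of normalized count + 1 (y axis) of 6 pairs of alternative subunits within each Rnf40+/+ (blue) and Rnf40-/- (red) library, with mean (line) and SD (bar). The genotypes do not overlap in any of the 6 pairs, and the widest gap is that of Smarcd3/Smarcd2, at -1.33. Single genes did not overlap in 56.5% of all genes tested. The share over gene pairs was not computed, and the 3 SMARCD pairs share genes.

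Of the ATPase genes, Smarca4 was higher in Rnf40-/- MEFs and Smarca2 did not pass the test. Smarca4 (ENSMUSG00000032187, chromosome 9 of mm9, 21420613 to 21508674), whose product BRG1 is the ATPase of most complexes in proliferating cells, had normalized counts of 3295, 3519 and 3472 with Rnf40 and of 3926, 3980.5 and 4224 without it. Every Rnf40-/- value was above every Rnf40+/+ value. The log2 fold change was 0.24 (limma, SE 0.06, adjusted p = 0.0076), or 17.9% more in the means of 3429 ± 118 and 4043.5 ± 159 (SD, n = 3 each). The rise was thus past the test but modest, and 62.7% of all genes tested had a larger absolute change.

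Smarca2 (ENSMUSG00000024921, chromosome 19 of mm9, 26679650 to 26852811) encodes BRM, the alternative ATPase. It had normalized counts of 726, 669 and 679 with Rnf40 and of 726, 669 and 710.0 without it, which overlapped almost fully. Its log2 fold change was 0.02 (95% interval -0.15 to 0.19, limma adjusted p = 0.841). The log2 ratio of Smarca2 to Smarca4 was -2.18, -2.39 and -2.35 with Rnf40 and -2.43, -2.57 and -2.57 without it. The difference of -0.22 left a narrow gap between the highest Rnf40-/- and the lowest Rnf40+/+ value. Per kilobase of exon, Smarca2 made up 16.9% ± 1.12 of both ATPases in Rnf40+/+ and 14.9% ± 0.708 in Rnf40-/- MEFs (SD, n = 3 each).

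Smarcb1 (ENSMUSG00000000902, chromosome 10 of mm9, 75359514 to 75384362) encodes a core subunit that contacts the nucleosome and is a tumor suppressor. It has no paralog that could fill its place. Its normalized counts were 1305, 1248 and 1359 with Rnf40 and 972, 941 and 1023 without it. The genotypes were well apart, with similar spread in both. The log2 fold change was -0.41 (limma, SE 0.07, adjusted p = 0.000486), with means of 1304 ± 55.5 and 979 ± 41.0 (SD, n = 3 each).

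Smarcc1 (ENSMUSG00000032481, chromosome 9 of mm9, 110034541 to 110142682) and Smarcc2 (ENSMUSG00000025369, chromosome 10, 127896292 to 127927229) encode the scaffold proteins around which the core is assembled. Smarcc1 had normalized counts of 2249.9, 2302 and 2169.7 with Rnf40 and of 2494, 2498 and 2471 without it. The Rnf40-/- values were all higher, but the log2 fold change of 0.15 (95% interval 0.02 to 0.28) did not pass after adjustment (limma adjusted p = 0.0556). It passed in 2 of 16 alternative fits, with edgeR and without Rnf40+/+ replicate 2. Smarcc2 had normalized counts of 2594, 2632 and 2442 with Rnf40 and of 2456, 2435 and 2364 without it, which overlapped. Its log2 fold change was -0.08 (95% interval -0.21 to 0.06, limma adjusted p = 0.319).

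The ratio of these scaffold transcripts had the smallest spread of the 6 pairs. The log2 ratio of Smarcc2 to Smarcc1 was 0.21, 0.19 and 0.17 with Rnf40 and -0.02, -0.04 and -0.06 without it. The genotypes were apart by -0.23, against SDs of 0.018 and 0.021, although neither gene passed the test on its own. Such a ratio does not depend on the size factors. Per kilobase of exon the summed level of both genes was 846 ± 29.8 and 855 ± 11.7 (SD, n = 3 each).

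Smarce1 (ENSMUSG00000037935, chromosome 11 of mm9, 99070361 to 99092331) encodes an HMG-box subunit of the core. It had normalized counts of 2473, 2497 and 2505 with Rnf40 and of 2435, 2463 and 2581 without it. The log2 fold change was 0.00026 (95% interval -0.13 to 0.13, limma adjusted p = 0.998), the smallest absolute change of the 10 members, and the genotypes overlapped.

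Arid1a (ENSMUSG00000007880, chromosome 4 of mm9, 133234923 to 133312684) encodes the large DNA-binding subunit of the canonical BAF complex, a position that can also be taken by ARID1B. Its normalized counts were 1742, 1602 and 1713 with Rnf40 and 1866, 1813 and 1785 without it. The Rnf40-/- values were all above the Rnf40+/+ values by a small margin, and the log2 fold change of 0.11 (95% interval -0.03 to 0.25) did not pass (limma adjusted p = 0.178). Arid1b (ENSMUSG00000069729), which is not among the 10 members, had normalized counts of 862, 763 and 796 with Rnf40 and of 646, 669 and 596 without it. It was lower, by -0.34 on the log2 scale (limma, SE 0.08, adjusted p = 0.00503). The log2 ratio of Arid1b to Arid1a was -1.06 ± 0.05 in Rnf40+/+ and -1.52 ± 0.07 in Rnf40-/- MEFs (SD, n = 3 each), a difference of -0.45 without overlap. Per kilobase of exon, Arid1b made up 30.4% ± 0.669 of both transcripts in Rnf40+/+ and 24.2% ± 0.93 in Rnf40-/- MEFs (SD, n = 3 each).

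The study lists Smarcd3, Smarca2, Arid1a and Arid1b among genes with broad H3K4me3 at the promoter in MEFs. Of these, Smarcd3 and Arid1b were lower, and Smarca2 and Arid1a did not pass the test. Among all genes tested, 24.1% were called lower, and so few genes cannot show a departure from that share. Whether genes with broad H3K4me3 were lower more often than other genes was not tested. The histone marks themselves were not analysed here.

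Levels of different subunits can be compared only per length. Per kilobase of exon, Smarca4 (529.5 ± 18.3 in Rnf40+/+ and 624 ± 24.6 in Rnf40-/- MEFs) and Smarcc2 (508 ± 20.0 and 481 ± 9.58) were the most abundant members, and their ranges overlapped in Rnf40+/+ but not in Rnf40-/- MEFs. Smarcd3 was the least abundant (97.6 ± 3.58 and 39.8 ± 4.93), below Smarca2 (108 ± 4.76 and 109 ± 4.59) in both genotypes. Smarcb1 (160.4 ± 6.82 and 120.3 ± 5.04) ranked above Arid1a (147 ± 6.45 and 159 ± 3.60) in Rnf40+/+ and below it in Rnf40-/- MEFs, without overlap in either. This order depends on the length used. The exons of all transcripts of Smarcb1 cover 8133 nucleotides against 1660 in its longest coding transcript, and per kilobase of the longest coding transcript Smarce1 (854 ± 5.69) and Smarcb1 (786 ± 33.4) led in Rnf40+/+ MEFs, Smarca2 was lowest (117 ± 5.17) and Smarcd3 stood at 256 ± 9.37 (SD, n = 3 each).

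The other subunits of SWI/SNF complexes were taken from a list of 21 genes, of which 19 were tested. Of these, 1 was higher and 5 were lower with an adjusted p under 0.05 in limma, against 23.3% and 24.1% of all genes tested, and their median log2 fold change was -0.14 (-0.074 without Rnf40-/- replicate 2). None changed by more than 1 on the log2 scale. The lower genes were Bcl7c, Pbrm1, Actb, Phf10 and Arid1b, and 3 of these belong to the 7 tested ARID, PBAF and PHD-finger subunits.

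Ss18 (ENSMUSG00000037013), whose product is fused to SSX in synovial sarcoma, was the subunit that was higher. It had normalized counts of 2084, 2137 and 2029.96 with Rnf40 and of 2827, 2923 and 2758 without it, a log2 fold change of 0.44 (limma, SE 0.06, adjusted p = 9.78e-05). All Rnf40-/- values were well above the Rnf40+/+ values. Among the lower genes, Bcl7c had the largest change, with means of 451 ± 44.9 and 307 ± 54.6 (SD, n = 3 each) and a fold change on the log2 scale of -0.56 (limma, SE 0.13, adjusted p = 0.00382). Bcl7c (chromosome 7 of mm9, 134806867 to 134852447) lies close to the targeted gene Rnf40 (chromosome 7, 134732212 to 134747119). Whether the altered Rnf40 locus has a part in the values of Bcl7c was not tested.

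Of the 4 subunits particular to the PBAF form of the complex, Pbrm1 and Phf10 were lower, whereas Arid2 and Brd7, named after their values were seen, did not pass (log2 fold changes of -0.22 and 0.13, limma adjusted p = 0.0772 and 0.154). Brd7 was above the Rnf40+/+ range in every Rnf40-/- library. Pbrm1, the polybromo subunit, had normalized counts of 1895, 1758 and 1643 with Rnf40 and of 1251, 1266 and 1208 without it (log2 fold change -0.51, limma, SE 0.07, adjusted p = 0.000122). Phf10, a PHD-finger subunit, went from 944 ± 47.2 to 729 ± 20.4 (log2 fold change -0.37, limma adjusted p = 0.00147). Its exons overlap a gene on the opposite strand over 9.68% of their length. Actb, the beta-actin that is also a subunit of the complex, had a log2 fold change of -0.45 (limma, SE 0.10, adjusted p = 0.00222), but most actin in a cell is cytoskeletal. Both genes without enough reads to be tested are subunits of differentiated cells. Actl6b, the neuronal actin-related subunit, had no more than 4.78 normalized counts in any library. Dpf3, a subunit of heart and skeletal muscle, had 25.1 in Rnf40+/+ replicate 1 and no more than 2.04 in any other library, and this is the library with the high Actc1.

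**Figure D3:**
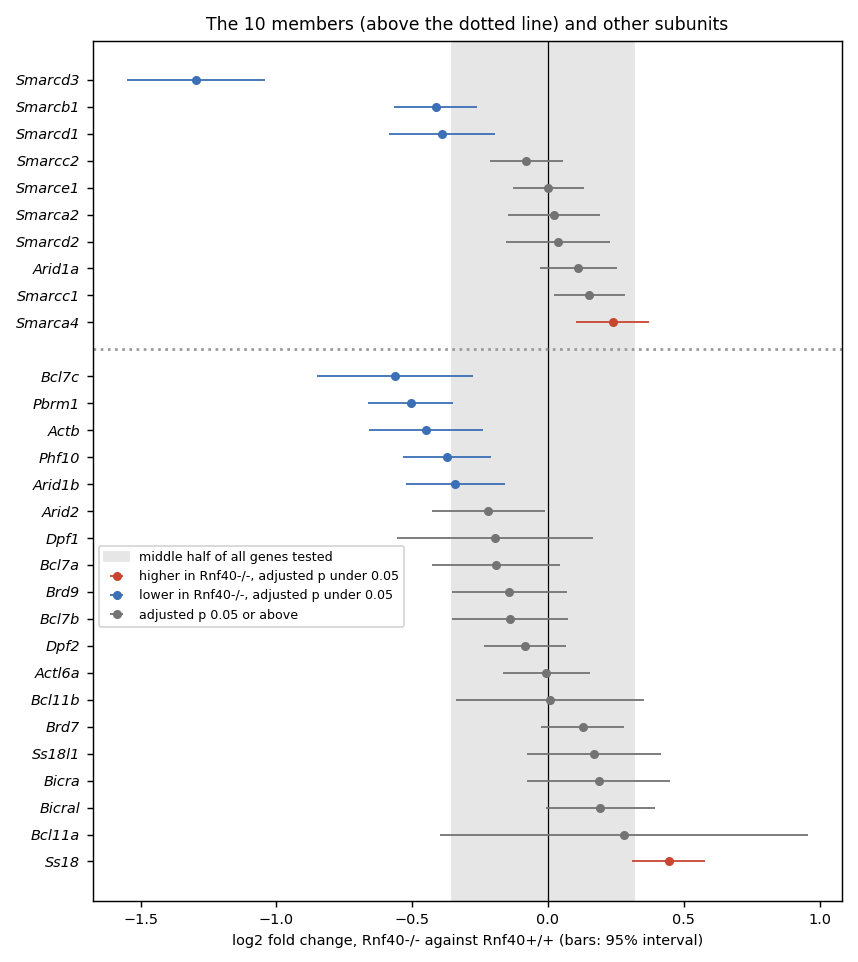
Log2 fold change between Rnf40-/- and Rnf40+/+ MEFs (x axis) with its 95% interval for the 10 members (above the dotted line) and the 19 tested other subunits (below), colored by direction where the adjusted p from limma was under 0.05, and the range between the quartiles of all genes tested in gray (-0.35 to 0.32). Smarcd3 lies far outside the gray band at -1.30, and the other subunits stay between -0.56 and 0.44.

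Smarca4, Smarcb1, Smarcd1 and Smarcd3 passed in each of 16 alternative fits, among them those that leave out a library. The fit with DESeq2 size factors gave the same values as the reported fit, because the deposited counts were already scaled by DESeq, and is not a separate check. For Smarcd3 the log2 fold change stayed between -1.35 and -1.19, that of Smarcb1 between -0.45 and -0.38, that of Smarcd1 between -0.45 and -0.31, and that of Smarca4 between 0.21 and 0.26. Smarca2, Smarcc2, Smarcd2, Smarce1 and Arid1a passed in none of the 16, and Smarcc1 passed in 2.

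**Figure D4:**
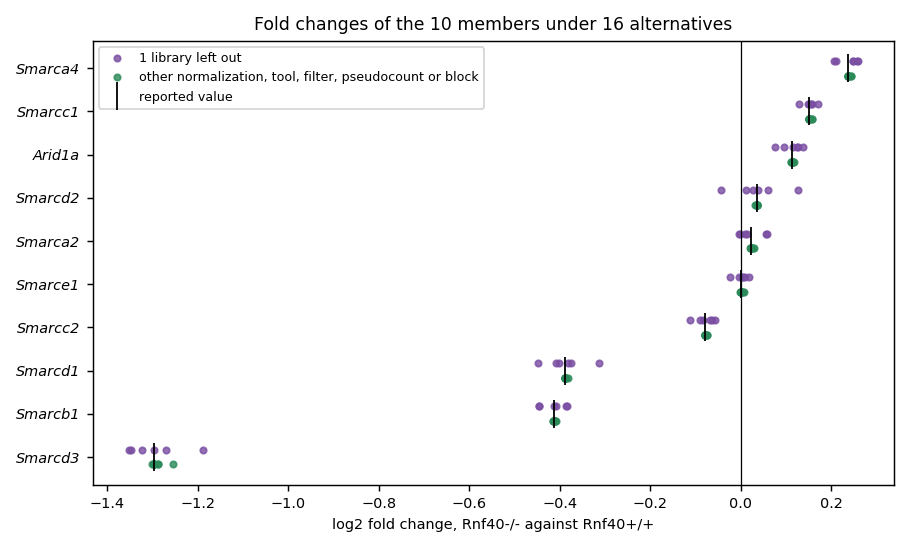
Log2 fold change (x axis) of each member in the reported fit (black line), with 1 library left out (purple) and under other normalizations, tools, filters, pseudocounts or the replicate block (green). The points of Smarcd3 stay between -1.35 and -1.19, while those of Smarca2, Smarcd2 and Smarce1 lie on both sides of 0.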

How the data were processed

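RNA was sequenced from 3 Rnf40+/+ and 3 Rnf40-/- libraries of primary MEFs, prepared with a directional kit. The submitters' processing notes name Bowtie2 2.1.0, DESeq 1.14.0 and the mm9 genome, and the counter is not given in the sources used here. The authors deposited a signal per gene, namely counts divided by a size factor per library. All values were whole multiples of 1 read (100% within a tolerance of 0.01), which gave the reads back. Those reads set the filter (filterByExpr of edgeR 4.0.16), which kept 16378 of 29955 genes. Genotypes were compared with limma 3.58.1 (trended variance, R 4.3.3) on log2(normalized count + 1), with Benjamini-Hochberg adjustment over all genes tested and a threshold of 0.05. Fold changes are on this scale, which understates the change of low genes. Paralog ratios were compared by an exact permutation test. The fit was also run on simulated data, in which a small part of the genes changed. Each of those changed by more than Smarca4, Smarcb1 and Smarcd1 did here. The simulation therefore does not cover such small changes or so wide a response. edgeR and DESeq2 1.42.0 on the recovered reads, other normalizations, filters, pseudocounts and lengths, a replicate block and each library left out were the alternatives, and edgeR called 7797 and DESeq2 7289 of the genes tested. Members and lists were chosen with earlier results of these data known. Every member was named, together with the called other subunits with the 4 largest changes in each direction, those not tested, and Arid1b. Chpf2 was added because its exons overlap Smarcd3. Levels per kilobase and exon overlaps used the union of exons of a GENCODE annotation of the mm9 build, with noncoding transcripts included. The study states that reads were mapped to the UCSC mm9 transcriptome. The counts may therefore rest on other transcripts than these lengths. Promoter windows came from RefSeq, and no mm9 coordinate was converted.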

Additional observations from a re-analysis of the deposited data

How the results depend on the processing

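The calls of Smarca4, Smarcb1, Smarcd1 and Smarcd3 passed in each of 16 alternative fits. Of the recomputed values 461 were rated the same, 19 moved further, 2 newly passed and 6 fold changes of single members turned in sign. For single genes, the same meant an equal direction and side of the threshold. Medians and shares had to move by less than the spread between libraries. Paralog ratios only had to keep their sign. Numbers of called genes only had to be roughly alike, so 3051 against 3809 called higher was rated the same. The 461 include the fit with DESeq2 size factors, which repeats the reported one. With edgeR, 2 members were called higher, Smarcc1 being the second, and with 1 library left out the number was 1 to 2, because Smarcc1 passed without Rnf40+/+ replicate 2. With the study's cutoffs applied to limma's p-values and fold changes, 0 members were higher and 1 was lower. In that setting 0 other subunits passed in either direction, and 696 and 934 of all genes tested passed as higher and lower. These are not the study's own counts, which came from DESeq. The median change of the members was -0.023 to 0.032 with 1 library left out, below 0 without Rnf40+/+ replicate 2 or Rnf40-/- replicate 3, and that of all genes tested was 0.033 without a gene filter. Smarce1 was at -0.00095 with upper-quartile normalization and at -0.025 to 0.017 with 1 library left out, Smarca2 at -0.0034 to 0.057 and Smarcd2 at -0.044 to 0.13. The median change of the other subunits was -0.17 to -0.074 with 1 library left out, the latter without Rnf40-/- replicate 2. The share of Smarca2 in Rnf40-/- MEFs was 15.8%, and that of Smarcc2 57.2% and 53.2%, with the longest transcript as length. The longest coding transcript, an alternative added after seeing the data, gave the same values for both, and put Smarcd3 at 29.0% and 15.1% of the SMARCD paralogs. Same-numbered libraries showed no clear shared deviation (correlations 0.012, 0.017 and 0.021), and differently numbered ones reached 0.037. These values cannot exclude a shared origin, because deviations were taken from means of only 3 libraries over all genes tested. With the replicate block 1 member was higher and 3 were lower. Outliers were not looked for in groups of 3, and 3 libraries against 3 cannot give an exact permutation p below 0.1.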

Other observations

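Other genes carry a Smarc name without encoding subunits of SWI/SNF complexes. Of 4 such genes, Smarcad1 and Smarcal1 were lower in Rnf40-/- MEFs (log2 fold changes of -0.26 and -0.36, adjusted p = 0.0195 and 0.0197 from limma). Among all genes tested, 24.1% were called lower, and 4 genes are too few to compare with that share. The ISWI ATPase genes Smarca5 and Smarca1 did not pass (log2 fold changes of 0.15 and -0.69, adjusted p = 0.0971 and 0.103 from limma). Smarca1 had 320 normalized counts in Rnf40+/+ replicate 1, against 127 and 105 in replicates 2 and 3, and 96.9, 88.7 and 118 without Rnf40.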
